A study of Danio rerio with 17 samples.

Results

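Zebrafish genes that are widely used to mark macrophages were followed across cells sorted for vascular reporters. These 7 genes, of 30220 in the deposited table, are mpeg1.1, mfap4, marco, csf1ra, csf1rb, irf8 and apoeb, and they were taken by their gene symbols alone. They are set against 10 genes of endothelial scavenger and lymphatic cells, a vessel population that takes up waste from the blood and tissue fluid.

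RNA sequencing had been done on 17 libraries of cells sorted by fluorescence from dissociated Danio rerio embryos of 3 transgenic lines. Of these, Tg(acta2:egfp), here the acta2 line, expresses green fluorescent protein from the acta2 (smooth muscle actin) promoter and was sorted at 4 days post fertilization into mural cells (3 positive libraries) and non-mural cells (3 negative libraries). Embryos of the same age that carried Tg(acta2:mcherry);(foxc1b:egfp), with a second reporter driven by the forkhead gene foxc1b, form the acta2/foxc1b line, with 2 mural (positive) and 3 non-mural (negative) libraries; which colours were gated is not stated. In the kdrl line, Tg(kdrl:mcherry), the promoter of kdrl, a VEGF receptor gene, marks endothelium, and 3 positive libraries of endothelial cells stand against 3 negative libraries of non-endothelial cells at 5 days. No mutation or treatment is named for any group, and a vascular smooth muscle tissue label is given to all libraries, the kdrl and negative ones included. Cells of the kdrl line were fixed before sorting and made into libraries with another kit, so that day, fixation and kit cannot be told apart from the line. The labels do not say whether replicates are separate clutches, and p-values therefore measure only how these samples spread, possibly for technical reasons.

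Depth ran from 10474235 to 40868765 recovered reads per library. Transcripts of the reporter genes checked the sorts: the log2 fold change of acta2 was 7.46 in the acta2 line and 9.02 in the acta2/foxc1b line, and that of kdrl was 5.25 in the kdrl line. All 3 passed the test (limma adjusted p of 2.81e-05, 0.0272 and 0.000502), whereas foxc1b in the acta2/foxc1b line, at 2.07, did not (adjusted p = 0.3). Reads of the mitochondrial ribosomal RNA mt-rnr2 were 9.35 to 16.3% of the acta2 positive and 1.23 to 3.86% of the acta2 negative libraries. The heat shock gene hspa8 led the reads of all acta2 negative libraries, at 3.80 to 7.98%, and those of acta2/foxc1b negative replicate 2, at 9.50%.

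Macrophages arise from myeloid progenitors under transcription factors that include the PU.1 proteins and Irf8, and they depend on signalling through the CSF1 receptor, a tyrosine kinase that answers CSF1 and IL-34. Zebrafish carry a pair of copies of this receptor gene; csf1ra is also used by pigment cells of the xanthophore lineage. Some vessel cells, such as those with stabilin and mannose receptors, share with macrophages the use of scavenger receptors without belonging to the blood lineage.

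Values are normalized read counts, that is reads divided by a size factor of each library, and the acta2 and acta2/foxc1b libraries were scaled apart from the kdrl libraries. Levels set across lines are therefore given in CPM, recovered reads scaled to the same total in every library. Fold changes are on the log2(value + 1) scale, from limma fitted over all genes of a line, and a gene is called at an adjusted p under 0.05. Relative to CPM, the size factors raise every positive over negative difference by 0.29 (log2) in the acta2 line and by 0.57 in the kdrl line, and shift it by -0.05 in the acta2/foxc1b line. In bulk samples, fewer cells of a type and less RNA per cell cannot be told apart.

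Of the 7 genes limma called 1 in the kdrl line, 1 of 5 tested in the acta2 line and 0 in the acta2/foxc1b line. Over all genes tested it called 3.17% higher and 2.79% lower in the kdrl line. These shares were 3.26% and 3.75% in the acta2 line, and 0.0271% and 0% in the acta2/foxc1b line. Counts this small do not set the 7 genes apart from genes in general. In the kdrl line csf1rb was higher in the positive cells, a call that was lost when most single libraries were left out. The other 6 did not pass the test, although 10 of 11 leukocyte, 8 of 13 neutrophil and 9 of 10 scavenger and lymphatic genes were called higher there. Mural cells of the acta2 line had less apoeb, a call that was lost when some single libraries were left out. In the acta2/foxc1b line limma and edgeR called 0 of the 7 genes, while DESeq2 on recovered reads called 1, mpeg1.1 (adjusted p = 0.0288). Over all genes DESeq2 also called many more in this line than limma or edgeR did.

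**Figure D1:**
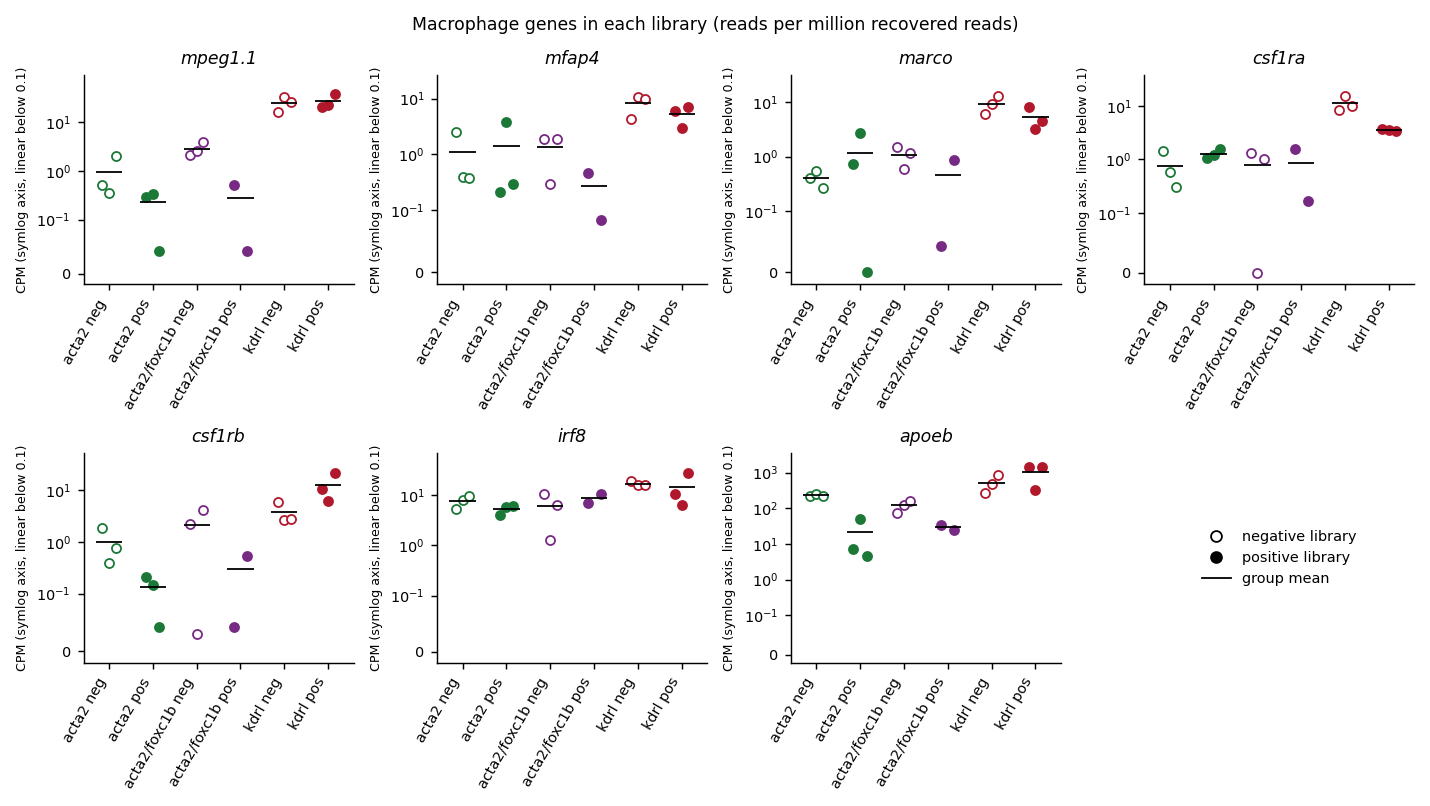
Level of each macrophage gene in every library, in CPM on a symmetric log axis that is linear below 0.1. Points are libraries (open, negative; filled, positive), black lines are group means, and colours are the lines. The kdrl groups have the highest means for all 7 genes, and mpeg1.1 runs from 0.226 CPM on average in acta2 positive to 27.4 CPM in kdrl positive libraries.

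Levels were ordered first across the 6 groups. The kdrl groups held the highest mean CPM for each of the 7 genes. For mpeg1.1, which encodes a pore-forming protein of macrophages, the group means were 27.4 CPM in kdrl positive, 25.2 in kdrl negative, 2.84 in acta2/foxc1b negative, 0.966 in acta2 negative, 0.276 in acta2/foxc1b positive and 0.226 in acta2 positive libraries. In CPM the kdrl groups overlapped each other and lay apart from acta2/foxc1b negative. That group lay narrowly apart from acta2 negative (lowest 2.12 against highest 2.02 CPM), and the lowest 3 groups overlapped their neighbours. In normalized counts these 2 negative groups overlapped, with 35.6 in acta2/foxc1b replicate 1 and 44.7 in acta2 replicate 3. The ratio of mean CPM between the negative cells of the kdrl and acta2 lines was 26.1 for mpeg1.1, 22.8 for marco, 14.7 for csf1ra, 7.67 for mfap4, 3.77 for csf1rb, 2.28 for apoeb and 2.19 for irf8. With a size factor fitted jointly over all libraries these ratios were lower, from 15.8 for mpeg1.1 to 1.23 for irf8. Set against acta2/foxc1b negative cells, the CPM ratios were 8.89 for mpeg1.1, 8.62 for marco, 14.2 for csf1ra, 6.12 for mfap4, 1.77 for csf1rb, 4.39 for apoeb and 2.80 for irf8, so the order of the genes depended on the line.

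Reads limit what the acta2 lines can show. Of their 11 libraries, under 10 reads were counted in 5 for csf1rb, 4 for mpeg1.1 and 3 each for marco, mfap4 and csf1ra. No library of the kdrl line had under 10 reads of any of the 7 genes. A count of 0 was found for marco in acta2 positive replicate 3, which allows up to 0.127 CPM (3 reads), and for csf1ra in acta2/foxc1b negative replicate 2, which allows up to 0.0895 CPM; these limits cover counting error only. The genes apoeb, with at least 110 reads, and irf8, with at least 43, had more reads than these limits in every library.

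Among the markers of mature macrophages, mpeg1.1 in the kdrl line had 186, 618 and 460.0 normalized counts in negative replicates 1 to 3 and 416, 538 and 1017 in the positive ones. The groups overlapped, with the highest value in positive replicate 3 and the lowest in negative replicate 1. The log2 fold change was 0.70 (SE 0.50, 95% interval -0.41 to 1.81, limma adjusted p = 0.417), against the scaling difference of 0.57 given above.

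Mural sorting of the acta2 line left mpeg1.1 with 11.8, 8.55 and 44.7 normalized counts in negative and 10.9, 8.13 and 1.05 in positive libraries, from 1 to 53 reads. Negative replicates 1 and 3 lay above all positive libraries, replicate 1 narrowly, and negative replicate 2 lay among them. The difference of -1.55 (SE 1.01, 95% interval -3.84 to 0.74) did not pass limma's test (adjusted p = 0.389). For mpeg1.1 in the acta2/foxc1b line the negative libraries, at 35.6, 138 and 60.8 normalized counts, all lay above the positive ones, at 10.7 and 1.11. The log2 fold change was -3.78 (SE 1.19, 95% interval -6.58 to -0.97), with an unadjusted p of 0.0153 and a limma adjusted p of 0.296. In the authors' deposited table mpeg1.1 has a log2 fold change of -2.59 in this line with an adjusted p of 0.0156. Deposited means of that comparison cover the 11 libraries of both acta2 lines, whereas limma used this line alone. Deposited fold changes, here and below, come from the authors' DESeq2 fit, and their sizes are not on the measure of limma's. For acta2 in this line the deposited value is 8.10, against 9.02 by limma.

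Scavenger receptor gene marco, whose protein binds bacteria on macrophages, had 70.1, 168 and 222 normalized counts in kdrl negative and 160.5, 76.5 and 116 in kdrl positive libraries. The groups overlapped, and the log2 fold change was -0.29 (SE 0.50, 95% interval -1.40 to 0.82, limma adjusted p = 0.745). The acta2 libraries had marco at 9.10, 13.2 and 5.91 normalized counts in the negative and 28.1, 63.9 and 0 in the positive cells, so that positive libraries held both the highest and the lowest values. Its log2 fold change there was 0.31 (SE 1.43, limma adjusted p = 0.92). For acta2/foxc1b cells the marco values were 24.8, 32.5 and 18.1 in negative and 0.891 and 23.3 in positive libraries, which overlapped (log2 fold change -1.91, limma adjusted p = 0.685).

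The mfap4 gene, whose promoter is used to label zebrafish macrophages, had 49.5, 199.5 and 173 normalized counts in kdrl negative and 119, 71.0 and 188 in kdrl positive libraries. The groups overlapped and the log2 fold change was -0.04 (SE 0.58, 95% interval -1.33 to 1.25, limma adjusted p = 0.976). Within the acta2 line single libraries stood out in both groups, with 56.4, 9.33 and 8.44 in negative and 7.82, 88.3 and 7.34 in positive libraries. In this line mfap4 failed the filter on low values, and a fit without that filter gave 0.08 (SE 1.15, limma adjusted p = 0.979). Its acta2/foxc1b negative libraries, at 31.7, 16.3 and 29.8 normalized counts, lay above the positive ones, at 9.80 and 2.22, without overlap, and the log2 fold change of -2.13 (SE 1.11) did not pass (limma adjusted p = 0.558).

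Copies of these genes bear on the counts. RefSeq (GRCz12tu) lists 13 mfap4 genes where the table has 1, so reads of mfap4 may be divided among copies or come from several of them. All 3 mpeg1 genes are in the table. The share of mpeg1.1 in the reads of mpeg1.1, mpeg1.2 and mpeg1.3 was 68.9 to 86.7% in the kdrl line. It was 6.11 to 15.9% for non-mural and 0.352 to 2.51% for mural cells of the acta2 line, and 9.75 to 49.7% against 0.870 to 4.26% for those of the acta2/foxc1b line. In the acta2 lines most mpeg1 reads thus lay on the other copies; mpeg1.2 alone averaged 169 ± 51.6 normalized counts (SD, n = 3) in acta2 negative and 425 ± 232 (SD, n = 3) in acta2 positive libraries, a log2 fold change of 1.24 that did not pass (limma adjusted p = 0.134).

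Ratios within a library do not depend on the size factor. In the kdrl line there were 152 ± 52.8 reads of mpeg1.1 (SD, n = 3) per 100 reads of ptprc, the gene of the leukocyte surface phosphatase CD45, in negative libraries and 27.5 ± 9.07 (SD, n = 3) in positive ones. The 3 negative libraries, at 155, 202 and 97.0, all lay above the 3 positive ones, at 18.7, 36.8 and 26.8. This separation carries the ptprc difference given below. The share of gene pairs so separated was not counted, so it is no result about mpeg1.1. Per 100 mpeg1.1 reads the same libraries held 37.7 ± 10.5 marco reads against 21.4 ± 15, and 32.2 ± 5.50 mfap4 reads against 20.1 ± 7.82 (SD, n = 3 in each group), and these groups overlapped. Transcript lengths differ, so such ratios compare libraries and not the levels of the genes.

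The CSF1 receptor genes csf1ra and csf1rb differed in sign in the kdrl line. The csf1ra transcript had 96.8, 282 and 175 normalized counts in kdrl negative and 73.4, 84.0 and 88.6 in kdrl positive libraries. All positive libraries lay below all negative ones, and the log2 fold change of -1.04 (SE 0.45, 95% interval -2.03 to -0.05) had an unadjusted p of 0.042 and did not pass (limma adjusted p = 0.196). The csf1rb transcript had 67.8, 49.4 and 48.4 normalized counts in negative and 212, 143 and 549.5 in positive libraries. All positive libraries lay above all negative ones, also in CPM, where they ran from 6.11 to 20.9 against 2.67 to 5.85. The share of all genes with groups so separated was not counted, in this or the acta2 line. Separation alone is therefore no result about a gene.

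The log2 fold change of csf1rb in the kdrl line was 2.21 (SE 0.51, 95% interval 1.08 to 3.33), which passed limma's test (adjusted p = 0.0323). It was the only member called of 7, where 3.17% of the 24903 genes tested in this line were called higher and 2.79% lower. Without any single library other than positive replicate 2 the call was lost, at limma adjusted p of 0.0543 to 0.0981, with log2 fold changes of 1.66 (without positive replicate 3) to 2.36 (without negative replicate 1). The authors' deposited table lists csf1rb with a log2 fold change of 2.19 in the kdrl line with an adjusted p of 0.000344.

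Among acta2 libraries csf1ra had 31.8, 14.0 and 6.75 normalized counts in negative and 39.1, 27.9 and 38.8 in positive libraries, which overlapped. Its log2 fold change was 1.2 (SE 0.73, 95% interval -0.44 to 2.84, limma adjusted p = 0.353). For csf1rb the negative libraries, at 41.9, 9.33 and 16.9, all lay above the positive ones, at 7.82, 3.49 and 1.05, which rest on 5, 3 and 1 reads. It failed the filter on low values, and the fit without that filter gave -2.20 (SE 0.93, 95% interval -4.27 to -0.14, limma adjusted p = 0.226).

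Among acta2/foxc1b libraries csf1ra had 22.4, 0 and 16.2 normalized counts in negative and 32.1 and 4.45 in positive libraries, and csf1rb had 37.1, 1.63 and 65.3 in negative and 0.891 and 14.4 in positive libraries. Both genes overlapped between the groups, with log2 fold changes of 0.86 (limma adjusted p = 0.905) and -1.80 (limma adjusted p = 0.78).

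**Figure D2:**
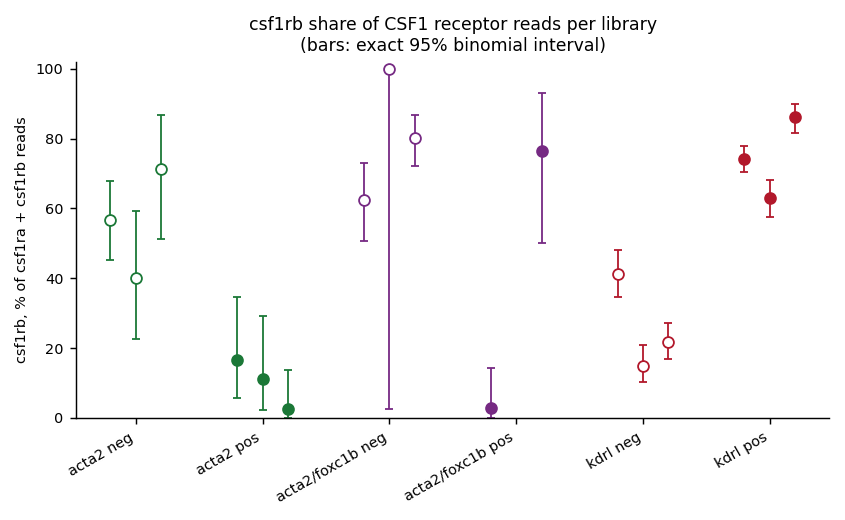
Share of csf1rb in the summed reads of csf1ra and csf1rb in each library, in percent, with exact 95% binomial intervals that cover counting error only (open, negative; filled, positive). The share is 63.1 to 86.1% in kdrl positive against 14.9 to 41.2% in kdrl negative libraries, and 2.63 to 16.7% in acta2 positive against 40.0 to 71.4% in acta2 negative libraries.

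As a share of the reads of both receptor genes, csf1rb made up 25.9 ± 13.7% in kdrl negative and 74.5 ± 11.5% in kdrl positive libraries (SD, n = 3 each). In the acta2 line the order was the opposite, with 56.1 ± 15.7% in negative and 10.1 ± 7.07% in positive libraries (SD, n = 3 each). Neither line showed overlap between its groups. In the kdrl line this followed from the csf1rb and csf1ra counts above, which separated in opposite directions, and it is no further result. The 2 acta2/foxc1b positive libraries lay far apart, at 2.70% (exact 95% interval 0.0684 to 14.2) and 76.5% (50.1 to 93.2). The negative libraries of that line were at 62.3 and 80.2%, and negative replicate 2 held a single read of both genes. These shares were looked at after the values of the genes were known, and no test is given for them.

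Markers of xanthophores, whose lineage uses csf1ra, and of leukocytes in general and neutrophils are set beside the receptor genes. Among 8 xanthophore genes, the summed level was 24.8 to 26.9 CPM in acta2 negative and 50.3 to 72.5 CPM in acta2 positive libraries. For the kdrl line it was 59.5 to 126 CPM in negative and 34.7 to 53.2 CPM in positive libraries, the same order as csf1ra. Of these genes aox5, an aldehyde oxidase gene of xanthophores, was called higher in the acta2 line (log2 fold change 4.99, limma adjusted p = 0.00642) and lower in the kdrl line (-2.11, limma adjusted p = 0.0359), and no listed gene was at 0 throughout a group. The list did not move as a whole in the acta2 line, where its median log2 fold change was 0.06. There gch2 (3.77) was also called higher and pax7b (-1.79) lower, while pax7a (-2.52, limma adjusted p = 0.103) and tfec (-1.87, limma adjusted p = 0.181) did not pass. In the kdrl line the median was -1.19, and tfec (1.52) was called higher, against the sign of csf1ra. The genes gch2, pax7a and pax7b were picked out after their values were seen. Their part in the csf1ra values was not tested. Leukocyte genes, 10 of 11 called higher in the kdrl line, and neutrophil genes, 8 of 13 called higher there, went with csf1rb. So, among other lists, did endothelial (15 of 16), scavenger and lymphatic (9 of 10) and epidermal genes (3 of 8). The part of any of these in the csf1rb values was not tested.

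The ligand genes of the receptors are csf1a, csf1b and il34. Among acta2 libraries csf1b had 279, 227 and 192 normalized counts in negative and 838, 547 and 848 in positive libraries, so that every positive library lay above every negative one. Its log2 fold change of 1.66 (SE 0.34) passed limma's test (adjusted p = 0.0226), which it did not without negative replicate 2, negative replicate 3 or positive replicate 3 (adjusted p of 0.0872, 0.0924 and 0.0875). Among kdrl libraries csf1b had 68.6, 177 and 125 normalized counts in negative and 26.4, 37.6 and 34.1 in positive libraries. Here every positive library lay below every negative one, and the log2 fold change was -1.80 (SE 0.48, limma adjusted p = 0.056; 0.0234 with the replicate number as a block). That block called many more genes over all genes tested in the kdrl line, as given in the closing section. The difference between the kdrl and acta2 sorts was -3.46 (SE 0.60, limma adjusted p = 0.00308).

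For csf1a the log2 fold change was 0.38 in the acta2 line (limma adjusted p = 0.633), and it was -2.95 in the kdrl line (limma adjusted p = 0.0727). Its value with the replicate block is not given here. For il34 the acta2 line gave 1.3 (adjusted p = 0.07) and the kdrl line 1.52 (adjusted p = 0.065; 0.0375 with the replicate block). Of the 3 ligand genes limma called 0 in the acta2/foxc1b line, with csf1b at 1.90 (unadjusted p of 0.0356, limma adjusted p = 0.388). The authors' deposited table, with means over the 11 libraries of both acta2 lines, gives csf1b 1.5 there with an adjusted p of 0.0276. Of the 10 genes of the CSF1R ligand and signalling list, which holds the 3 ligand genes, 5 were called higher and 0 lower in the kdrl line. They were plcg2 and, with the smallest adjusted p, the phosphatase genes inpp5d (2.83) and ptpn6 (2.96), the kinase gene syk (3.06) and the adaptor gene tyrobp (2.30). The count was 2 without negative replicate 1. These genes also act in other leukocytes.

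The myeloid transcription factor gene irf8, whose product is required for macrophage formation in zebrafish embryos, had a read count of at least 43 in every library. Across acta2 libraries it had 117, 194 and 209 normalized counts in negative and 152, 132 and 146 in positive libraries. The kdrl values were 216, 284 and 273 in negative and 204.5, 149.6 and 718 in positive libraries, where positive replicate 3 alone lay above the negative ones. Among acta2/foxc1b libraries irf8 had 173, 69.9 and 97.0 in negative and 143 and 281 in positive libraries.

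Groups overlapped for irf8 in all 3 lines. The log2 fold changes were -0.23 (SE 0.40, 95% interval -1.13 to 0.67, limma adjusted p = 0.767) in the acta2 line, 0.92 (SE 0.74, limma adjusted p = 0.727) in the acta2/foxc1b line and 0.13 (SE 0.53, 95% interval -1.06 to 1.31, limma adjusted p = 0.901) in the kdrl line. Without kdrl positive replicate 3 the last value was -0.55. Mean CPM ran from 5.18 in acta2 positive to 16.6 in kdrl negative libraries, and in that order each group overlapped the next.

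Of 10 other regulators of the myeloid lineage, 4 were called higher and 0 lower in the kdrl line. The PU.1 gene spi1b had 73.9, 214 and 198 normalized counts in negative and 773, 540.3 and 1717 in positive libraries, with no overlap, and rose by 2.61 on the log2 scale (limma adjusted p = 0.0199). The other 3 were runx3 (2.35), mafbb (1.77) and irf5 (1.72), and spi1a, the second PU.1 gene, was at 1.90 (adjusted p = 0.0559; 0.0163 with the replicate block). None of the 4 was called without negative replicate 1 or without positive replicate 1, and 7 genes of the list were called with the block. The block also called many more genes over all genes tested, as given in the closing section, so this count is no result about the list. Mural cells of the acta2 line had mafbb lower (-2.25, adjusted p = 0.038) and mafba, picked out after its value was seen, higher (1.17, adjusted p = 0.0405).

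The lipid carrier gene apoeb encodes an apolipoprotein E that is abundant in microglia and also in skin, yolk and other tissues. Among acta2 libraries it had 4981, 5932 and 4991 normalized counts in negative and 263, 1216 and 115 in positive libraries. Negative libraries were alike, positive ones spread widely, and the groups did not overlap. The log2 fold change was -3.98 (SE 0.71, 95% interval -5.58 to -2.39), which passed limma's test (adjusted p = 0.0144), and apoeb was the 1 gene called of the 5 members tested, where 3.75% of 20582 genes were called lower and 3.26% higher. The call was lost without negative replicate 2 (adjusted p = 0.0681) or negative replicate 3 (adjusted p = 0.0559). The authors' deposited table, with means over the 11 libraries of both acta2 lines, gives apoeb -2.36 in this line with an adjusted p of 0.00262. That fold change is from the authors' DESeq2 fit, so its size is not set against limma's.

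Among acta2/foxc1b libraries apoeb had 1237, 6655 and 2567 normalized counts in negative and 709 and 637 in positive libraries. Again no positive library reached a negative one, and the log2 fold change was -2.04 (SE 0.77, 95% interval -3.86 to -0.22, unadjusted p of 0.0329, limma adjusted p = 0.381). Among kdrl libraries apoeb had 3079, 8816 and 14571 normalized counts in negative and 28693, 7618 and 37655 in positive libraries. There positive replicates 1 and 3 lay above all negative libraries and positive replicate 2 lay among them, and the log2 fold change of 1.46 (SE 0.72, 95% interval -0.14 to 3.06) did not pass (limma adjusted p = 0.251).

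Markers of other cell types went with apoeb in some lines and against it in others. The summed level of 9 glial genes was 1236 to 1355 CPM in acta2 negative and 113 to 229 CPM in acta2 positive libraries, and limma called 5 of 9 lower. In the kdrl line glial sums were also lower in positive cells, at 177 to 645 CPM against 1967 to 5208 CPM, with 5 of 9 called lower, opposite in sign to apoeb there. Erythroid genes in the acta2 line had 52.2 to 334 CPM in negative and 6.79 to 20.9 CPM in positive libraries, with 4 of 7 called lower, and their sums overlapped in the kdrl line. For 8 epidermal genes the sums overlapped in the acta2 line, at 1050.1 to 1124 and 278 to 1731 CPM. For kdrl libraries they were 1465 to 3207 CPM in negative and 2058 to 17985 CPM in positive libraries, with 3 of 8 genes called higher, while the 11 liver and yolk genes had 376 to 1444 and 943 to 3598 CPM. The acta2/foxc1b negative libraries spread widely, with epidermal sums of 597 to 42741 CPM against 293 to 741 CPM in positive ones. Their liver and yolk sums were 1331 to 15887 against 1294 to 3640 CPM, and their glial sums 111 to 3148 against 155 to 344 CPM. No listed glial, epidermal or liver and yolk gene was at 0 throughout any group. The part of these cells in the apoeb values was not tested. Of 10 other lipid handling genes in the kdrl line, 0 were called higher and 1, the lipoprotein receptor gene lrp1aa, lower (-2.21, limma adjusted p = 0.0237); apoea was at -0.59 (adjusted p = 0.677).

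**Figure D3:**
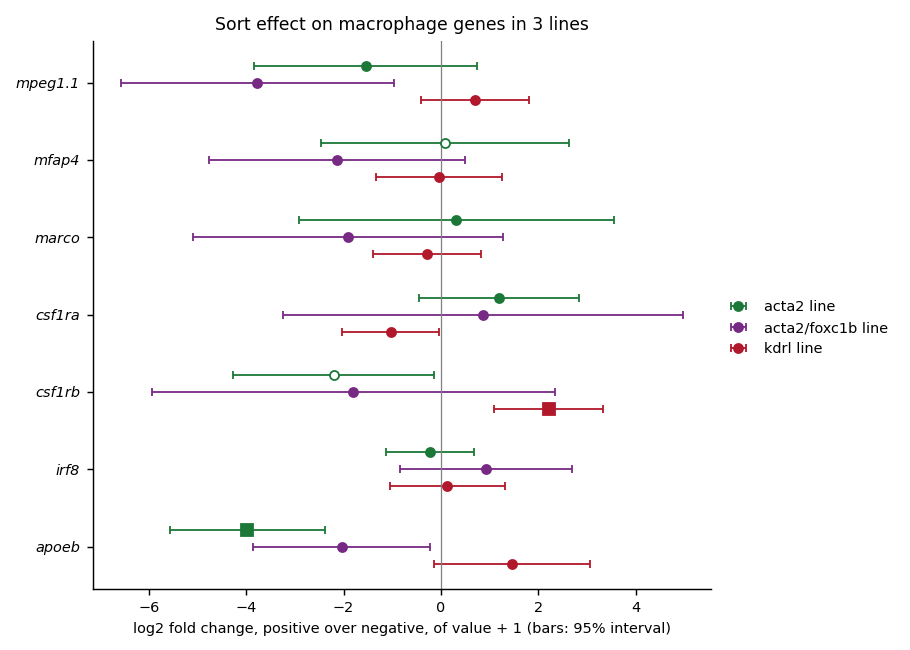
Log2 fold change of each macrophage gene, positive over negative cells, in each line, with 95% intervals from limma. Squares passed the test, and open circles are genes that failed the filter on low values and come from the fit without it. The squares are apoeb in the acta2 line, at -3.98, and csf1rb in the kdrl line, at 2.21.

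By limma and by edgeR, 0 of the 7 genes were called in the acta2/foxc1b line, and 2, mpeg1.1 and apoeb, had an unadjusted limma p under 0.05. In that line limma called 0.0271% of 22116 genes higher and 0% lower, with 2532 genes at an unadjusted p under 0.05, and edgeR called 0. Of the 7 genes, mpeg1.1, mfap4 and apoeb did not overlap between the groups, all lower in positive cells. With 2 positive and 3 negative libraries such separation is easily reached. Its share over all genes was not counted, so it is no result about these genes. The summed level of 11 leukocyte genes was 277 to 289 CPM in negative and 83.7 to 89.9 CPM in positive libraries. Their median log2 fold change was -3.30 against -0.11 over all genes tested. The part of leukocytes in the values of the 7 genes was not tested. The same sums in the acta2 line ran from 244 to 346 CPM in negative and from 78.6 to 152 CPM in positive cells. There limma called 2 of 11 lower, coro1a (-2.98) and rac2 (-3.51), both picked out after their values were seen. The list did not move as a whole, with a median log2 fold change of -1.18 in the acta2 line. The genes wasb (1.41), arpc1b and cyba (0.19), likewise picked out, were higher in positive cells without passing limma's test. The other genes of the list were lower.

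The kdrl comparison sets the macrophage genes beside genes of other blood cells and of scavenger endothelium. Positive cells had more transcript of nearly all endothelial and scavenger genes, and also more of most leukocyte and neutrophil genes. The median log2 fold change was 0.13 over the 7 macrophage genes and -0.05 over all 24903 genes tested. It was 0.93 over 27 other macrophage genes, 3.03 over 11 leukocyte genes, 2.39 over 13 neutrophil genes and 3.84 over 10 scavenger and lymphatic genes.

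**Figure D4:**
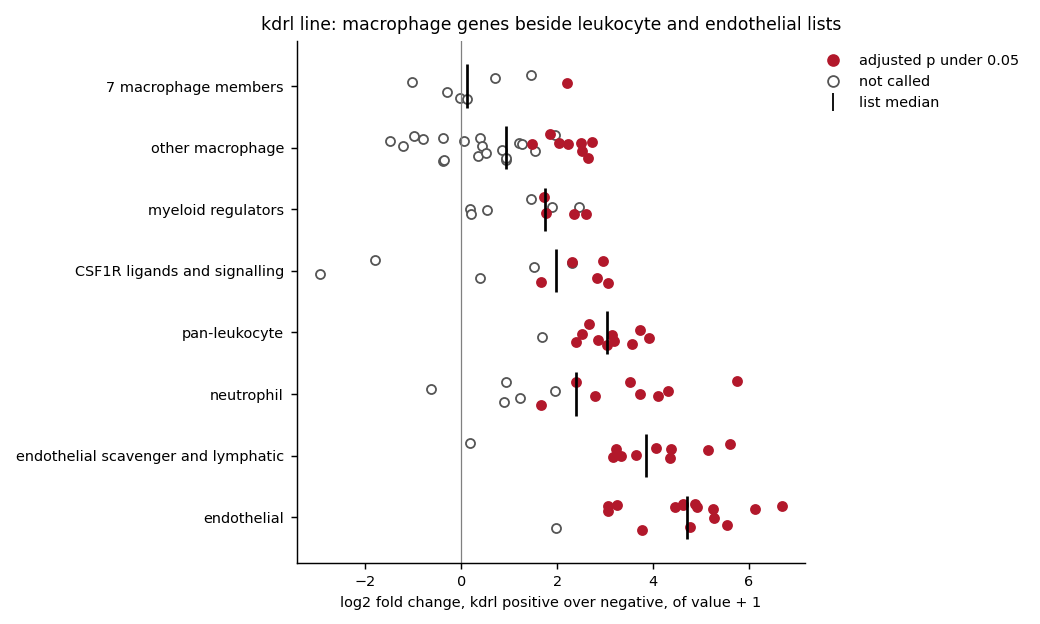
Log2 fold change in the kdrl line, positive over negative cells, for genes of 8 lists; points are genes (filled, limma adjusted p under 0.05) and vertical bars are list medians. The macrophage genes centre on 0.13 with 1 of 7 called, whereas scavenger and lymphatic genes centre on 3.84 with 9 of 10 called.

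Scavenger genes were called higher in 9 of 10 cases, all but the lymphatic factor gene prox1a (0.18, limma adjusted p = 0.781). The mannose receptor gene mrc1a averaged 157 ± 95.1 normalized counts in kdrl negative and 4971 ± 201 in kdrl positive libraries (SD, n = 3 each), and its log2 fold change was 5.13 (limma adjusted p = 0.000502). The stabilin genes stab1 and stab2, which encode clearance receptors, were at 3.17 (adjusted p = 0.00111) and 3.63 (adjusted p = 0.000502), and lyve1b, a hyaluronan receptor gene, at 5.60 (adjusted p = 0.000502). For the acta2 line limma called 0 of the 10 scavenger genes, with 1 at an unadjusted p under 0.05 and a median of -0.33. In the acta2/foxc1b line it also called 0, with 2 at an unadjusted p under 0.05 and a median of -0.55. Over all genes tested, 4957 of 20582 and 2532 of 22116 were at such a p in these lines. The count of scavenger genes called in the kdrl line was 8 or 9 when any single library was left out.

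Among leukocyte genes 10 of 11 were called higher in kdrl positive cells and 0 lower. The CD45 gene ptprc had 119.6, 305 and 474 normalized counts in negative and 2219, 1461 and 3795 in positive libraries, which did not overlap (log2 fold change 3.15, limma adjusted p = 0.00869). The 11 genes summed to 199.7 to 404 CPM in the negative libraries, and to 909 to 2021 CPM in the positive ones. Neutrophil genes were called higher in 8 of 13 cases and lower in 0, among them the serglycin gene srgn (4.30), the lysozyme gene lyz (5.74), the myeloperoxidase gene mpx (3.51) and npsn (4.1). Their summed level was 214 to 345 CPM in negative and 1392 to 2362 CPM in positive libraries. Leaving out negative replicate 1 lowered the neutrophil count to 4, and the leukocyte count stayed at 8 to 10 without any single library. Beside the 7 macrophage genes, limma also called 15 of 16 endothelial, 3 of 11 liver and yolk and 2 of 11 smooth muscle genes higher, 5 of 9 glial genes lower and 0 of 7 erythroid genes in either direction.

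Of the 27 other macrophage genes tested in the kdrl line, 8 were called higher and 0 lower. Those with the smallest adjusted p were the chemokine receptor gene cxcr3.2 (2.73), the protease genes lgmn (2.05) and ctss2.1 (2.23), and the cytokine gene il1b (2.51). The others called were cd74a (2.63), cd74b (2.49), cybb (1.85) and mpeg1.2 (1.48), named here because they complete the count. Many of these are also used by other leukocytes. The complement genes c1qa (-0.98), c1qb (0.34) and c1qc (-0.38), likewise picked out after their values were seen, did not pass (limma adjusted p of 0.491, 0.751 and 0.718). The count of 8 fell to 2 (without negative replicate 1) to 5 when each of the 6 libraries was left out in turn, and was 5 with no filter on low values.

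Whether a gene's sort effect differed between endothelial and mural cells was tested directly. The scaling shifts relative to CPM (0.57 in the kdrl, 0.29 in the acta2 and -0.05 in the acta2/foxc1b line) carry into these differences. For the kdrl minus the acta2 effect, over 12 libraries, 2 of 7 macrophage genes were called, both higher, where 3.31% of 25490 genes were called higher and 2.8% lower. The difference was 4.41 for csf1rb (SE 1.05, 95% interval 2.18 to 6.64, limma adjusted p = 0.021) and 5.44 for apoeb (SE 1.07, 95% interval 3.16 to 7.73, limma adjusted p = 0.00751). The genes csf1rb and mfap4 had failed the filter on low values in the acta2 line and entered this comparison only through the kdrl libraries, and the acta2 positive side of csf1rb rests on 5, 3 and 1 reads. The difference of csf1rb was lost without acta2 negative replicate 1, kdrl negative replicate 2 or kdrl positive replicate 3 (adjusted p of 0.0501, 0.0548 and 0.0607), and that of apoeb was kept without any single library. The differences were 2.25 for mpeg1.1 (adjusted p = 0.241), -2.23 for csf1ra (adjusted p = 0.14), -0.60 for marco (95% interval -3.98 to 2.78), -0.11 for mfap4 (95% interval -2.97 to 2.74) and 0.36 for irf8 (95% interval -1.14 to 1.85), and none of these passed limma's test.

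For the kdrl minus the acta2/foxc1b effect, over 11 libraries, limma called 0 of 7 and edgeR also called 0, with 3 at an unadjusted p under 0.05. Here limma called 1.1% of 26367 genes higher and 1.4% lower, and 4281 of these genes had an unadjusted p under 0.05. The largest difference among the 7 was 4.48 for mpeg1.1 (SE 1.14, 95% interval 1.99 to 6.96, limma adjusted p = 0.0632), followed by 4.01 for csf1rb (adjusted p = 0.277) and 3.50 for apoeb (adjusted p = 0.146). The call on mpeg1.1 was gained without acta2/foxc1b negative replicate 1 or negative replicate 2 (limma adjusted p of 0.0449 and 0.0464). The number of genes called over all genes also moved with the library left out, as given in the closing section. Without positive replicate 1 that side is 1 library with 1 read of mpeg1.1, so no p is given. Scavenger genes were called higher in 8 of 10 cases against the acta2 line and in 7 of 10 against the acta2/foxc1b line; both comparisons use the same kdrl libraries.

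Other calls were set beside limma's. With edgeR on recovered reads, 1 of 7 macrophage genes was called in the acta2 line, where 2.86% of genes were called higher and 2.97% lower, and 1 in the kdrl line, where 3.1% were higher and 2.94% lower. For the kdrl minus acta2 effect edgeR called 2 of 7 against 3.21% of genes higher and 2.73% lower, and for the kdrl minus acta2/foxc1b effect 0 of 7 against 1.16% and 1.63%. Deposited means for both acta2 lines cover their 11 libraries together, whereas limma took each line alone. The deposited fold changes and p-values come from the authors' DESeq2 fit, another method than limma. In the authors' deposited table, of the 7 genes 1 has an adjusted p under 0.05 in each line: apoeb in the acta2 line, mpeg1.1 in the acta2/foxc1b line and csf1rb in the kdrl line. The shares of all genes past that threshold in the authors' deposited table are 2.43% higher and 3.22% lower in the acta2 line, 5.17% and 6.31% in the acta2/foxc1b line, and 6.66% and 6.62% in the kdrl line.

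**Figure D5:**
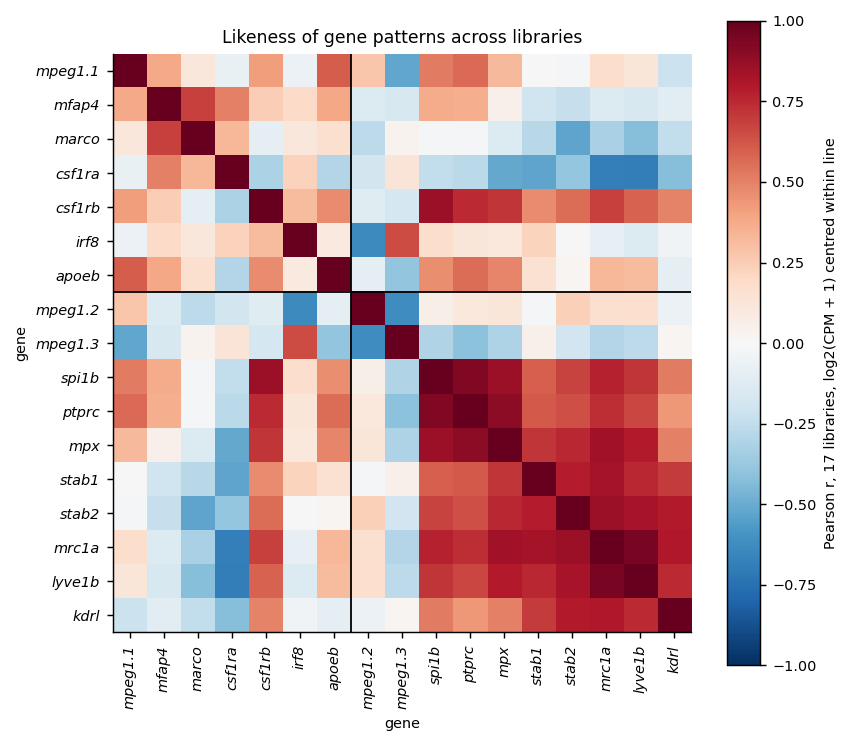
Pearson correlation of log2(CPM + 1), centred within each line, over 17 libraries, for the 7 macrophage genes (above and left of the black lines) and 10 other genes. The scavenger genes form a block with ptprc, spi1b and mpx, and of the macrophage genes csf1rb lies nearest to it, with r of 0.859 to spi1b and 0.687 to mrc1a. Values were not centred within sort groups, so r also carries the sort differences already given and is no separate support.

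Likeness of pattern was described by Pearson's r of log2(CPM + 1), centred within each line, over 17 libraries that share lines, sorts and depth, and no p is given. The macrophage genes were not closely alike: r was 0.686 for marco and mfap4, 0.607 for mpeg1.1 and apoeb, and -0.315 for csf1ra and csf1rb. To mrc1a, r was 0.687 for csf1rb and -0.682 for csf1ra. To ptprc it was 0.747 for csf1rb and 0.569 for mpeg1.1.

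Over 17381 genes, those most like csf1ra were ogn (r = 0.942), which encodes a matrix proteoglycan, asip1 (0.931), which encodes an agouti signalling protein of pigment patterning, and bmp5 (0.921). Those most like csf1rb were pkn1b (0.919), dnmt3bb.1 (0.889) and mef2b (0.885). For mpeg1.1 they were lsm12b (0.87), the cathepsin gene ctss2.2 (0.849) and igfbp5a (0.842), and for apoeb exosc6 (0.959), capn8 (0.931) and the epidermal claudin gene cldni (0.927). For irf8 they were orc6 (0.921), znf576.2 (0.889) and tbc1d14 (0.88). For marco they were qpctla (0.768), ccser1 (0.696) and pnpo (0.686), and for mfap4 trmt6 (0.794), dnajc17 (0.751) and tmem254 (0.733).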

How the data were processed

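Per the labels' protocols, TRIzol was used to isolate RNA; libraries of both acta2 lines came from oligo dT-primed cDNA, amplified (REPLI-g) and ligated to TruSeq adapters, and kdrl libraries came from fixed cells and the TotalScript kit. Per the submitters' processing notes, bcl2fastq 2.14, CASAVA 1.8.2, featureCounts 1.5.2, DESeq2 1.20.0 and genome build GRCz11 were used; the aligner is not given in the sources used here, nor whether counting used strand. The deposited signal values are read counts scaled by the authors with 1 size factor per library: 100% of values were whole reads within 0.1 read, and row means equalled the deposited baseMean of 11 and of 6 libraries to within relative differences of 6.27e-07 and 6.78e-10. The authors also deposited mean values (baseMean), log2 fold changes and p-values, and a standard error and test score that were not used.

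Because values were normalized, limma 3.58.1 (R 4.3.3) with a trend was run on log2(value + 1), two-sided, each line alone, for genes at 10 or more in a number of libraries equal to the smaller group, with Benjamini-Hochberg adjustment over all genes tested. The script was tested on simulated data. edgeR 4.0.16 and DESeq2 1.42.0 on recovered reads were alternatives, beside a pseudocount of 4, no filter, TMM scaling, the replicate number as a block and leaving out each library. Same-numbered kdrl libraries deviated together across genes (r of 0.475, 0.135 and 0.421), a hint of pairing from the data that the labels do not state. The main kdrl fits, their calls and list counts did not use this pairing. Only the values given with the replicate block did.

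The 7 genes, the 14 other lists and the tests were chosen with earlier results of these data known. Lists were matched by symbol or synonym, with 28 of 28 other macrophage, 11 of 13 leukocyte, 14 of 16 neutrophil and 10 of 11 CSF1R ligand and signalling genes found. Genes named are the 7, up to 4 per list with the smallest adjusted p in the kdrl line, the ligand, PU.1, ptprc, scavenger and reporter genes, and the 3 most like each of the 7 among genes that have more than a clone identifier as a name and a mean of at least 5 CPM in a group; exceptions are marked. Reads without molecular identifiers are not independent molecules, and 0 library pairs were identical.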

Additional observations from a re-analysis of the deposited data

Results flagged for a closer look

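The difference between the kdrl and acta2 sort effects passed limma's test for 2 of 7 macrophage genes. Over all 25490 genes tested, 3.31% were called higher and 2.8% lower. For csf1rb it was 4.41 on the log2 scale (limma adjusted p = 0.021), with all 3 kdrl positive libraries above and all 3 acta2 positive libraries below the negative libraries of their line. The gene passed the filter on low values only through the kdrl libraries, its acta2 positive libraries held 5, 3 and 1 reads, and the call was lost without acta2 negative replicate 1, kdrl negative replicate 2 or kdrl positive replicate 3 (limma adjusted p of 0.0501, 0.0548 and 0.0607). For apoeb it was 5.44 (limma adjusted p = 0.00751), with all 3 acta2 positive libraries below their negative ones and the kdrl groups overlapping. These orders of libraries restate the values tested and are no further support. Day, fixation and library kit differ between these lines and cannot be told apart from the line.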

How the results depend on the processing

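The acta2 lines held few reads of 5 of the 7 genes, and 2 or 3 libraries per group leave wide intervals, so most differences of these genes could not be shown in either direction. Genes called numbered 1441 in the acta2 line, 6 in the acta2/foxc1b line and 1485 in the kdrl line. DESeq2 gave 2941, 1692 and 3203, and 3106 in place of 1558 for the kdrl minus acta2 effect and 2418 in place of 661 for the kdrl minus acta2/foxc1b effect. In the acta2/foxc1b line a pseudocount of 4 gave 12, no filter 11 and edgeR 0. Leaving out each library gave 280 to 1358, 0 to 774 (without negative replicate 2) and 528 to 1467 in the lines, and 943 to 1791 and 157 to 1435 for the differences; the causes were not tested, beyond the smaller number of samples. Pairing by number as a replicate block gave 3359 genes in the kdrl line and 280 in the acta2/foxc1b line, where the numbers correlated at 0.12 and 0.038 and were not taken as pairs, nor in the acta2 line (0.00148, -0.0254 and -0.0111). The block changed no call on the 7 genes: csf1rb had an adjusted p of 0.0179 and csf1ra 0.0948 in the kdrl line.

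Of the 7 genes, those called numbered 1, 0 and 1 in the lines and 2 and 0 for the differences. Leaving out libraries gave 0 to 1 in the acta2 line, 0 to 1 in the kdrl line, 1 to 2 and 0 to 2 for the differences. DESeq2 called 1 in the acta2/foxc1b line (mpeg1.1, -3.67, adjusted p = 0.0288) and 3 for the kdrl minus acta2/foxc1b effect (mpeg1.1 4.21, csf1rb 4.50, apoeb 3.76). Both counts stand against its totals over all genes in the paragraph above, which were also larger than those of limma. The calls on apoeb in the acta2 line and csf1rb in the kdrl line were kept with edgeR (adjusted p of 0.0402 and 0.0313), DESeq2, TMM scaling, a pseudocount of 4, no filter and the block.

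Signs turned in 17 cases, all of them uncalled values with a library left out. In the acta2/foxc1b line csf1ra ranged from -0.58 (without negative replicate 2) to 2.16, and was -0.44 without positive replicate 1. In the kdrl line mfap4 was 0.33, 0.23 and 0.32 without negative replicates 2 and 3 and positive replicate 2 (lowest -0.67), marco 0.051 without negative replicate 3 (lowest -0.77), and irf8 -0.55 without positive replicate 3 (highest 0.58). For the kdrl minus acta2 effect mfap4 was 0.28, 0.34 and 1.01 without acta2 negative replicates 2 and 3 and positive replicate 2, and 0.25, 0.15 and 0.24 without kdrl negative replicates 2 and 3 and positive replicate 2 (lowest -0.96). There marco was 0.02 and 0.60 without acta2 positive replicates 1 and 2 (lowest -2.41), and irf8 -0.32 without kdrl positive replicate 3 (highest 0.81). For the kdrl minus acta2/foxc1b effect marco was -0.22 without acta2/foxc1b positive replicate 1 (highest 3.46). Alternatives for list counts, chosen after seeing the data, were run in the kdrl line for the other macrophage, regulator, CSF1R, leukocyte, neutrophil and scavenger lists only.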
